A study of Homo sapiens with 12 samples.

Results

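The proteasome genes were followed in MiaPaCa-2, a long-established line grown from a human pancreatic carcinoma, across 4 groups of cells transfected with small interfering RNAs (siRNAs): siControl, siSLC25A1, siACLY and siACO1, with 3 libraries each. The members were the protein-coding rows of the count table whose symbol begins with PSMA, PSMB, PSMC, PSMD, PSME, PSMF or PSMG followed by a number. This rule gave 50 members among 70116 rows. It used no measured value, and 42 of the 50 members had enough counts to be tested. All 3 targets handle citrate: SLC25A1 carries it out of mitochondria, ACLY splits it in the cytosol, and ACO1 is the cytosolic aconitase. All groups shared the same cell line and the siRNA transfection, and the labels give neither siRNA sequences, harvest time nor nutrient condition. Nothing in the labels says that the replicates are separate cultures, so the p-values measure the spread between these libraries, which may be technical.

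The proteasome degrades proteins tagged with ubiquitin. Its barrel-shaped 20S core is built of alpha subunits (PSMA genes), which gate the entrance, and beta subunits (PSMB genes), of which PSMB6, PSMB7 and PSMB5 cut the substrate. The 19S cap recognises and unfolds substrates with ATPases (PSMC genes) and non-ATPase subunits (PSMD genes). In cells exposed to interferon, PSMB9, PSMB10 and PSMB8 replace PSMB6, PSMB7 and PSMB5 to form the immunoproteasome, which favours peptides for antigen presentation, and PSME1 and PSME2 form an activator cap. NFE2L1 is the transcription factor known for raising proteasome genes when proteasome activity falls short.

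Library totals ran from 24159424 to 43792811 counts, and proteasome genes took between 0.647% and 0.766% of them. Each targeted transcript was low in its own group: SLC25A1 was at a mean of 134 CPM (counts scaled to a common library size by trimmed mean of M values, TMM) in siControl and 11.7 CPM in siSLC25A1, ACLY at 499 and 36.1 CPM in siControl and siACLY, and ACO1 at 45 and 1.68 CPM in siControl and siACO1. The labelled cell type was checked on markers. The epithelial keratins KRT8 and KRT18 were at 2278 and 1325 CPM in siControl and the mesenchymal VIM at 3561 CPM, whereas the epithelial EPCAM and CDH1 were at 0 counts in siControl, as were the leukocyte genes PTPRC and CD3E. Of the fibroblast markers, COL1A2 was at 885 CPM in siControl, with COL1A1 and PDGFRB at 0.184 and 0.0928 CPM. Markers moved in each knockdown. In siACO1 KRT8, KRT18 and KRT19 were lower, at 1279.7, 774 and 52.0 CPM, and COL1A2 was higher, at 1576 CPM. KRT19 was at 88.5 CPM in siControl and higher in siSLC25A1 and siACLY, at 121 and 141 CPM. In siSLC25A1 KRT8 and KRT18 were lower, at 2011 and 1151 CPM, and in siACLY they were at 2414 and 1315 CPM. The VIM libraries were at 3526, 3653 and 3504 CPM in siControl and at 4592, 4813 and 4270 CPM in siACLY. Replicate 3 of siACO1 stood apart from its group. Its chi-square per degree of freedom against replicates 1 and 2 was 11.9 and 12.6, against 2.31 between those 2, and its deviation from them had a median of 0.16 on the log2 scale over the tested proteasome genes (positive for 37 of 42) against 0.00 over all genes tested. The principal transcripts of the tested proteasome genes had a median length of 1625 bases against 3171 over all genes tested, and the deviation of this library fell with length, with a rank correlation (Spearman) of -0.43 over 11953 genes and -0.40 over the 42 members, where genes are not replicates. The part of length in the results was not tested. The main counts of called members in siACO1 are given with and without this library. Some values of single genes, and the shares of the lists of other genes, are given with all libraries only.

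In siControl, per kilobase of principal transcript, the highest levels were those of PSMA7, an alpha subunit, at 327 ± 12.5 CPM per kb (SD, n = 3) and PSME3, the nuclear activator, at 326 ± 2.09 CPM per kb, 2 levels that did not differ beyond their spread. They were followed by the beta subunits PSMB7 (299 ± 4.81 CPM per kb), PSMB4 (297 ± 7.62) and PSMB1 (250.1 ± 2.74). PSMD2, the large scaffold of the cap base, reached 239 ± 5.33 CPM per kb, and PSMD8 and PSMD3 of the lid reached 176 ± 3.15 and 155 ± 6.05 CPM per kb. The lowest levels among the tested members were those of PSMA2 (1.80 ± 0.45 CPM per kb), PSMB10 (2.95 ± 0.57), PSMD9 (3.44 ± 0.13) and PSMA6 (8.32 ± 0.43). Alpha and beta subunits enter each core in equal number, but the transcript levels per kilobase within the alpha ring ran from 1.80 for PSMA2 to 327 for PSMA7. At least 20% of the exon bases or transcript sequence of PSMA1, PSMA2, PSMB8, PSMB10, PSMC1, PSMC3IP, PSMD4, PSMD7 and PSMD9 is shared with other genes in the GENCODE 29 annotation, and since the counting rules are not given in the sources used here, their levels are uncertain. PSMC5, at 19.5% of its exon bases, is just under this mark. PSMA6 is also under it, with 14.1% of its exon bases and 14.4% of its transcript sequence shared.

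**Figure D1:**
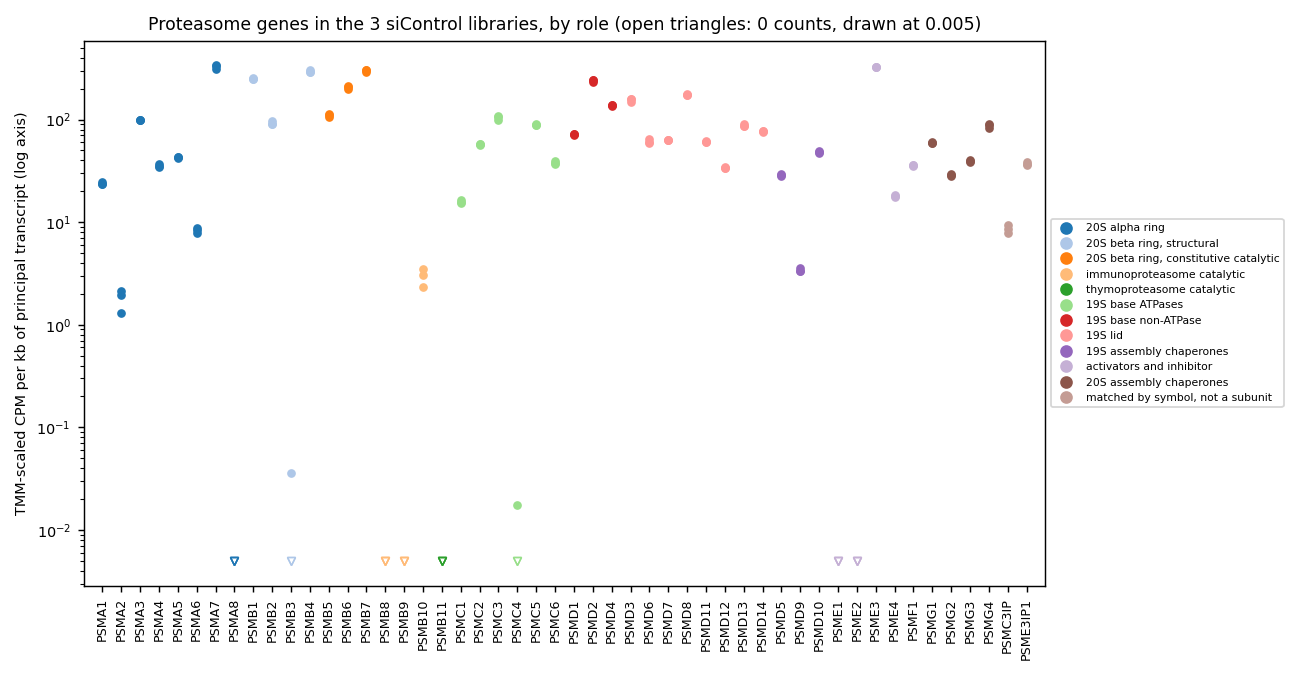
Level of the 50 members in the 3 siControl libraries, in CPM per kb of principal transcript on a log axis, with 1 point per library and colours for the subunit's role. Most subunits lie between 10 and 330 CPM per kb, PSMB10 is near 3, and open triangles mark libraries with 0 counts.

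Of the 3 immunoproteasome subunits, only PSMB10 had counts. PSMB5, the constitutive chymotrypsin-like subunit (chromosome 14, 23016543 to 23035230 on GRCh38, minus strand), was at 145, 138 and 146 CPM in siControl, at 138, 131 and 140.4 in siSLC25A1, at 141, 141 and 153 in siACLY and at 153, 152 and 178 in siACO1. The siACO1 libraries were above the siControl libraries, and the other groups overlapped siControl. Its partner PSMB8 (chromosome 6, 32840717 to 32844703, minus strand) was listed at 0 in all 12 libraries. PSMB6, the caspase-like subunit (chromosome 17, 4796144 to 4798503, plus strand), was at 180.4, 170.0 and 178 CPM in siControl, at 168, 163 and 157 in siSLC25A1, at 172, 172 and 171 in siACLY and at 194, 198 and 234 in siACO1. Every siSLC25A1 library lay just below siControl, with a log2 fold change of -0.12 that was not called (adjusted p 0.127), and every siACO1 library lay above it. Its partner PSMB9 (chromosome 6, 32844136 to 32859585, plus strand) was also listed at 0 in all 12 libraries.

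PSMB7, the trypsin-like subunit (chromosome 9, 124353466 to 124415444, minus strand), was at 296, 288 and 297 CPM in siControl, at 309, 299.8 and 290.4 in siSLC25A1, at 277, 274 and 288 in siACLY and at 281, 291 and 333 in siACO1. The siACO1 libraries overlapped siControl. Its partner PSMB10 (chromosome 16, 67934502 to 67937087, minus strand) was at 4.24, 3.69 and 2.86 CPM in siControl, at 3.49, 3.78 and 4.73 in siSLC25A1, at 3.96, 4.03 and 3.74 in siACLY and at 2.78, 4.00 and 3.88 in siACO1. All 4 groups of PSMB10 overlapped. Its log2 fold change against siControl was 0.13 in siSLC25A1 (95% interval -0.21 to 0.47), 0.11 in siACLY (-0.22 to 0.44) and -0.02 in siACO1 (-0.36 to 0.32), and it was called in none of the 3 comparisons under any alternative tried. PSMB10 counts were 0.964% to 1.43% of those of PSMB7 in siControl, 1.13% to 1.63% in siSLC25A1, 1.30% to 1.47% in siACLY and 0.988% to 1.37% in siACO1, without correction for length, so the ratio within a library did not separate the groups. Of the exon bases of PSMB10, 34.8% overlap another annotated gene, so even this level may hold reads of its neighbour.

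**Figure D2:**
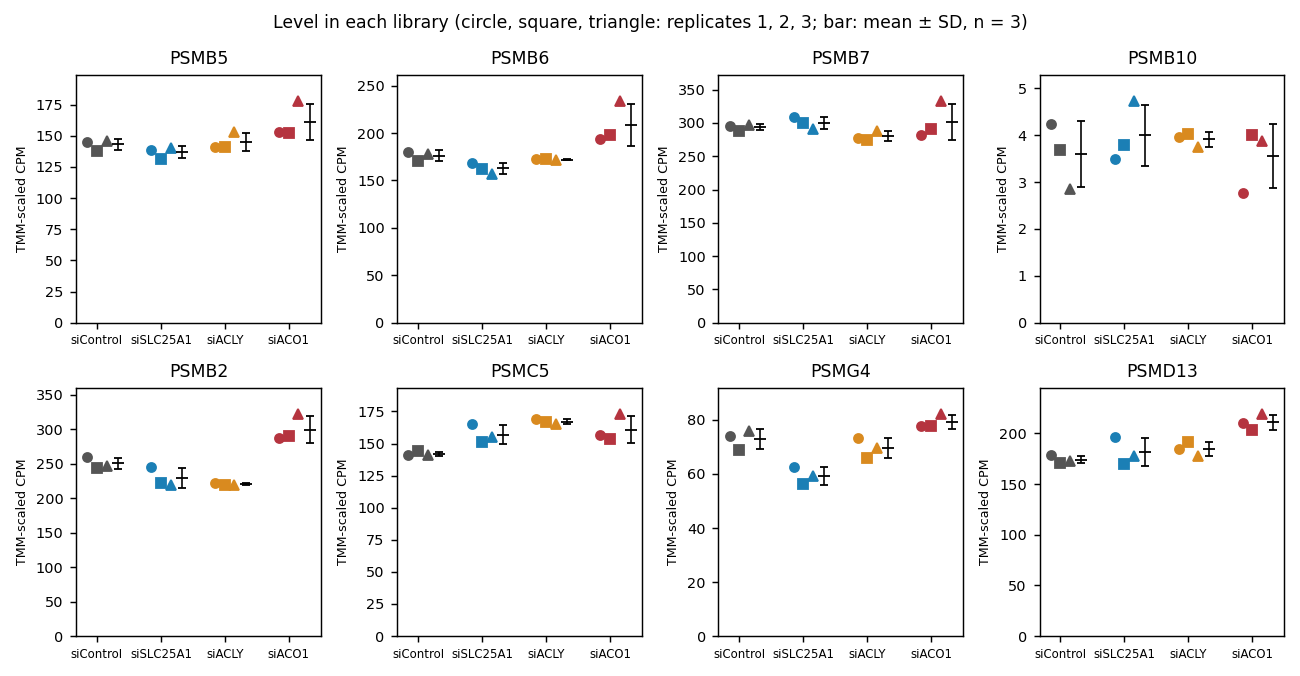
TMM-scaled CPM of 8 proteasome genes in each of the 12 libraries, on linear axes from 0, with the mean ± SD of 3 libraries beside each group. In siACO1 the libraries of PSMB2, PSMB6 and PSMD13 lie above those of siControl, those of PSMG4 are lowest in siSLC25A1, and PSMB10 overlaps between all groups.

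The zeros of PSMB8 and PSMB9 cannot be read as absence of the transcripts. Of the 16 protein-coding genes within 250 kb of PSMB8 and PSMB9, 15 had at most 36 counts over the 12 libraries, or 93.8%, against 36.5% of all 19855 protein-coding genes. PSME1 and PSME2, the subunits of the interferon-inducible activator (chromosome 14, 24136158 to 24138967 and 24143362 to 24147570), were listed at 0 in all libraries, and all 37 of their neighbours were at or under 36 counts. Among these was NEDD8, which encodes a ubiquitin-like protein that cells use widely, at 0 counts, a gene singled out with its value known. Around PSMB3, a structural beta subunit with 6 counts in total, 9 of 13 neighbours were at or under that number, and around PSMC4, a cap ATPase with 1 count, 8 of 12 were. PSMB3 and PSMC4 are parts of every core and cap, so these rows are also given as listed and not as absent. The cause of these runs of near-empty rows was not tested. For PSMA8, the alpha subunit of germ cells, neither of its 2 neighbours was near 0, and 0 counts in each library left a level of at most 0.0674 to 0.124 CPM, the level of 3 counts. PSMB11, the catalytic subunit of the thymus, had 7 counts in all, and 5 of its 19 neighbours were near 0.

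**Figure D3:**
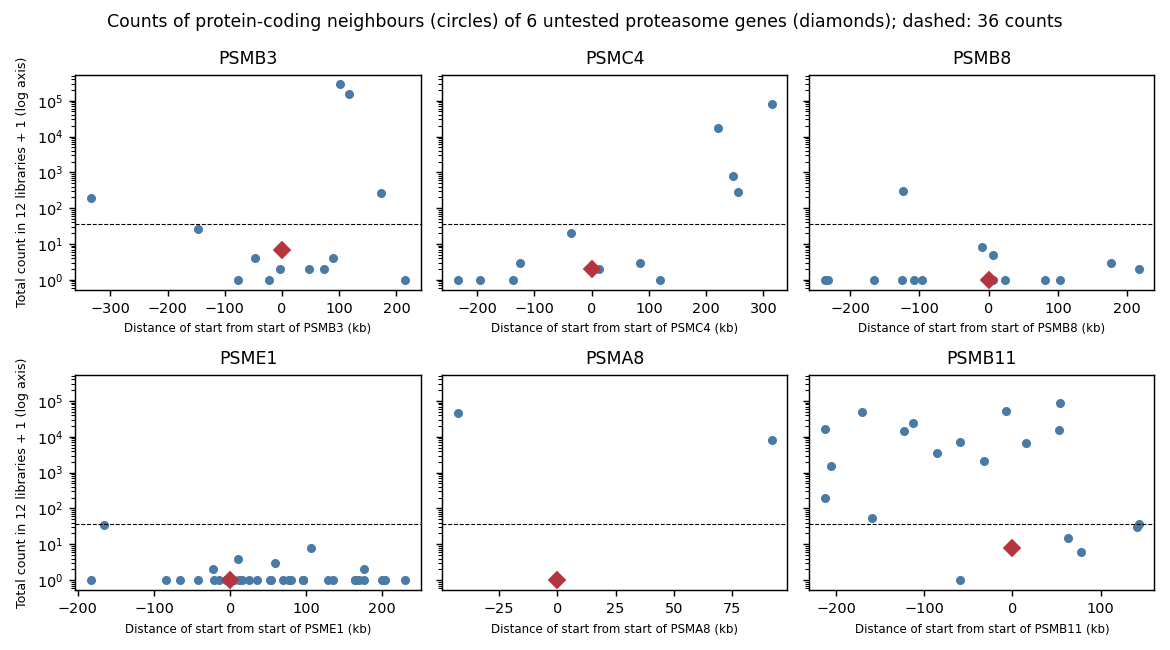
Total count over the 12 libraries, plus 1 and on a log axis, of 6 untested proteasome genes (diamonds) and of the protein-coding genes around them (circles), against the distance of their start sites in kb along the direction of transcription. PSME1 and PSMB8 lie among genes with few or no counts, while most neighbours of PSMB11 and both of PSMA8 were counted.

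The windows before the start sites were searched for motifs of known regulators, since interferon and NFE2L1 act on these genes through such motifs. The windows ran from 250 bases before to 50 after each RefSeq start (GRCh38.p14), and 44 of the 50 members had one, all but PSMA7, PSMB1, PSMB6, PSMB7, PSMD4 and PSMG3. The core of the antioxidant response element, TGACNNNGC on either strand, which NFE2L1 is known to bind with small MAF proteins, was found in 15 of the 44 windows (34.1%) against 16.1% of 27305 genes. CCAAT on either strand was found in 22 of 44 (50%) against 39.7%, and the core of the interferon-stimulated response element, GAAA, any 2 bases and GAAA again on either strand, in 7 of 44 (15.9%) against 4.38%. A match describes letters, not a bound site. Of the 36 tested members with a window, 10 held the antioxidant motif. They were 2 of the 12 called higher in siACO1 (PSMC5 and PSMD5), 1 of the 2 called lower (PSMG1) and 7 of the 22 not called there. The first sequences are antioxidant matches before the RefSeq starts of 2 members called in siACO1 (PSMC5 and PSMD5) and 2 cap subunits that were not called, and the others are the interferon matches of PSMB10, the counted immunoproteasome gene, PSME2, listed at 0, and PSMG4, the chaperone that fell in siSLC25A1. Each is read 5′ to 3′ on the gene's strand with the motif in capitals, and none of these matches overlaps another motif searched. The stretches of PSMC5, PSMB10, PSME2 and PSMG4 also fall in exons annotated in GENCODE 29.
PSMC5, chr17:63827654-63827683, plus strand: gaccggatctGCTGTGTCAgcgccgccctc
PSMD5, chr9:120843037-120843066, minus strand: tggctacagtTGACACGGCcctaacggagg
PSMD3, chr17:39980760-39980789, plus strand: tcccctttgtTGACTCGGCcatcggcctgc
PSMD12, chr17:67366723-67366752, minus strand: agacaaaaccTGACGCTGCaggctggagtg
PSMB10, chr16:67936852-67936881, minus strand: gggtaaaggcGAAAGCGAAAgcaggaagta
PSME2, chr14:24146619-24146648, minus strand: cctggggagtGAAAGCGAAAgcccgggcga
PSMG4, chr6:3258904-3258933, plus strand: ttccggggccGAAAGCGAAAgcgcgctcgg
The interferon motif is the same 10 letters, GAAAGCGAAA, in PSMB10, PSME2 and PSMG4. Other members with this motif are not printed, and in PSMA4 and PSMB4 the free bases between the GAAA runs are different ones.

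In siSLC25A1, 4 of 42 tested members were called (edgeR quasi-likelihood test, Benjamini-Hochberg adjusted p under 0.05), 9.52% against 19.6% of all genes tested, and 2 of them were higher, against 10.3% of all genes called higher. PSMG4, which with PSMG3 forms a chaperone of alpha ring assembly (chromosome 6, 3231403 to 3303373, plus strand), was at 74.0, 68.8 and 76.0 CPM in siControl and at 62.7, 56.2 and 59.2 CPM in siSLC25A1. The groups did not overlap, and PSMG4 fell by 0.30 on the log2 scale (SE 0.05, adjusted p 0.000134), to a level 18.5% under control. This was the only one of the 4 calls that held under all 19 alternatives. PSMG3, its partner, was at a log2 fold change of 0.00 (SE 0.05) in the same libraries.

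The cap ATPase PSMC5 was at 141, 144 and 141 CPM in siControl and at 165, 151 and 155 CPM in siSLC25A1, without overlap (log2 fold change 0.15, SE 0.04, adjusted p 0.0205). Its call was lost without siControl replicate 1 (adjusted p 0.0773) or 3 (0.0752) or siSLC25A1 replicate 1 (0.127), and without the filter on low counts (0.0572). PSMD2, which docks ubiquitin-like shuttle factors, was at 834, 803 and 836 CPM in siControl and at 942, 837 and 905 in siSLC25A1 (log2 fold change 0.12, SE 0.04, adjusted p 0.0422), with every siSLC25A1 library above siControl. PSMB2, a structural beta subunit, was at 259.6, 245 and 247 CPM in siControl and at 246, 222 and 219 in siSLC25A1, where the groups overlapped (log2 fold change -0.13, SE 0.05, adjusted p 0.0498). The calls of PSMD2 and PSMB2 were each lost in 10 of the 12 fits that left out 1 library, with adjusted p-values up to 0.207 and 0.242, and were kept without siACO1 replicate 3 and, respectively, without siSLC25A1 replicate 2 and replicate 1. The call of PSMD2 was also lost without the filter (adjusted p 0.109), and that of PSMB2 under median-of-ratios scaling (0.0590) and by DESeq2 (0.0632). The median log2 fold change over the tested members was -0.01, against -0.00 over all genes. By part of the complex, 11 of the 16 tested cap subunits and 4 of the 13 tested core subunits had a positive log2 fold change, with medians of 0.05 and -0.07. Without siACO1 replicate 3, which enters this comparison through the shared filter, scaling and estimate of the spread, 11 members were called, 3 higher and 8 lower. This was 26.2% of the tested members against 24.9% of all genes, so the share under the background did not hold in that fit.

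In siACLY, 5 of 42 tested members were called, 11.9% against 36.7% of all genes, and 3 were higher, against 18.4% of all genes. Among the called members PSMC5 rose most, from a mean of 142 ± 1.65 CPM in siControl to 169, 167 and 165 CPM in the siACLY libraries (log2 fold change 0.23, SE 0.04, adjusted p 0.000116, 17.7% above control). PSMD4, a ubiquitin receptor of the cap, was at 186, 188 and 182 CPM in siControl and at 206, 214 and 209 CPM in siACLY (log2 fold change 0.18, SE 0.05, adjusted p 0.00630). The cap ATPase PSMC2 was at 175, 173 and 176 CPM in siControl and at 194, 187 and 195 CPM in siACLY (log2 fold change 0.14, SE 0.04, adjusted p 0.0149). None of the 3 overlapped with siControl. The call of PSMC2 was lost without siControl replicate 2 (adjusted p 0.0628) or without siACLY replicate 1 (0.0698) or 3 (0.0677).

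The assembly chaperone PSMG3 was at 55.2, 53.7 and 56.0 CPM in siControl and at 47.9, 45.7 and 47.8 CPM in siACLY (log2 fold change -0.22, SE 0.05, adjusted p 0.00114). PSMB2 was at 222, 219.8 and 219 CPM in siACLY, all under the lowest siControl library at 245 CPM (log2 fold change -0.19, SE 0.05, adjusted p 0.00234). The calls of PSMC5, PSMD4, PSMG3 and PSMB2 held under all 19 alternatives. All 3 rises were in the cap and the 2 falls in a core subunit and a core chaperone. The median over tested members was 0.00, against 0.01 over all genes. Scaled by library totals alone, 9 members were called in siACLY (21.4% against 36.3% of all genes), 7 of them higher (16.7% against 22.1%).

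In siACO1, 16 of 42 tested members were called, 38.1% against 37.1% of all genes, so the number of calls was near the background. Their direction was uneven: 14 were higher, which is 33.3% of the tested members, against 17.8% of all genes called higher. The median log2 fold change over the tested members was 0.10, with 33 of 42 positive, against 0.01 over all genes. Without siACO1 replicate 3 the same fit called 14 members, 9 higher and 5 lower, and the median over members was 0.05. These were 33.3% called against 37.3% of all genes and 21.4% called higher against 17.4%, so without this library the share of higher calls was near the background. The 2 sets of calls shared 10 genes, namely PSMA6, PSMB2, PSMB6, PSMC2, PSMC5, PSMD4, PSMD11 and PSMD13, which were higher in both, and PSMC3 and PSMG1, which were lower in both. Scaling by library totals gave 24 calls (57.1% against 37.2% of all genes), of which 23 were higher (54.8% against 22.1%). The keratins and COL1A2 moved in the same comparison, as given above, and their part in these changes was not tested. Markers moved in the other knockdowns as well.

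Among the core subunits, 6 of 13 tested members were called higher in siACO1 and 0 lower, or 46.2% against 17.8% of all genes called higher. Without siACO1 replicate 3, 3 of the 13 were called higher, with 17.4% of all genes. The alpha subunit PSMA2 had the largest log2 fold change, 0.40, but was not called. It was at 2.93, 3.19 and 1.93 CPM in siControl and at 3.06, 4.32 and 3.31 CPM in siACO1, with overlap. PSMA6, an alpha subunit with few counts (chromosome 14, 35278633 to 35317493, plus strand), was at 8.99, 8.57 and 8.11 CPM in siControl and at 10.3, 10.7 and 11.2 CPM in siACO1 (log2 fold change 0.32, SE 0.10, adjusted p 0.0118), and its call was lost without siControl replicate 3 (adjusted p 0.0577). PSMB2 (chromosome 1, 35599544 to 35641844, minus strand) was at 287, 289.9 and 322 CPM in siACO1, all above siControl, a rise of 19.6% (log2 fold change 0.26, SE 0.05, adjusted p 5.37e-05). PSMB2 thus fell in siACLY and rose in siACO1. PSMB6 rose by 18.3% (log2 fold change 0.24, SE 0.05, adjusted p 0.000485) and by a log2 fold change of 0.15 without replicate 3 (adjusted p 0.00168).

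PSMB5 rose by 12.6% (log2 fold change 0.17, SE 0.05, adjusted p 0.00923), but with a log2 fold change of 0.09 without siACO1 replicate 3 (adjusted p 0.0853) and 0.14 without siControl replicate 2 (0.0632) the call was lost. The same library decided the calls of PSMA1 (log2 fold change 0.17 with it and 0.08 without) and PSMB4 (0.16 and 0.07). These 2 calls were also lost without siControl replicate 2 (adjusted p 0.0991 and 0.0608), that of PSMA1 without siControl replicate 1 (0.123) and that of PSMB4 without siControl replicate 3 (0.0643). PSMB7, the third cutting subunit, was not called, at a log2 fold change of 0.04 (95% interval -0.06 to 0.14).

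Among the cap subunits, 7 of 16 tested members were called higher and 1 lower in siACO1, or 50% called against 37.1% of all genes. Without siACO1 replicate 3, 5 were called higher and 3 lower, with 37.3% of all genes called. PSMD13, a lid subunit (chromosome 11, 236546 to 252984, plus strand), was at 178, 171 and 173 CPM in siControl and at 210.1, 204 and 219 CPM in siACO1, a rise of 21% (log2 fold change 0.28, SE 0.05, adjusted p 2.42e-05) that was 0.24 without replicate 3. PSMD11 of the lid, PSMC2, PSMC5 and PSMD4 rose with log2 fold changes of 0.18, 0.19, 0.18 and 0.18, and these 4 calls held under all 19 alternatives, as did those of PSMD13, PSMB2 and PSMB6. PSMC1 and PSMD2 were called at log2 fold changes of 0.13 and 0.11 and were not called without siACO1 replicate 3 (adjusted p 0.0598 and 0.0730). PSMC1 was also lost without siControl replicate 1 or 2 (0.121 and 0.0731), and PSMD2 in 10 of the 12 fits that left out 1 library (up to 0.179). PSMC3, a cap ATPase, was at 170.1, 158 and 167 CPM in siControl and at 149, 139 and 165 CPM in siACO1, with overlap (log2 fold change -0.13, SE 0.05, adjusted p 0.0491). Its call was lost in 8 of the 12 fits (adjusted p up to 0.318), but without siACO1 replicate 3 the log2 fold change was -0.20 (adjusted p 0.000228). Without that library PSMD6 and PSMD12 of the lid were also called lower, at -0.14 and -0.12.

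**Figure D4:**
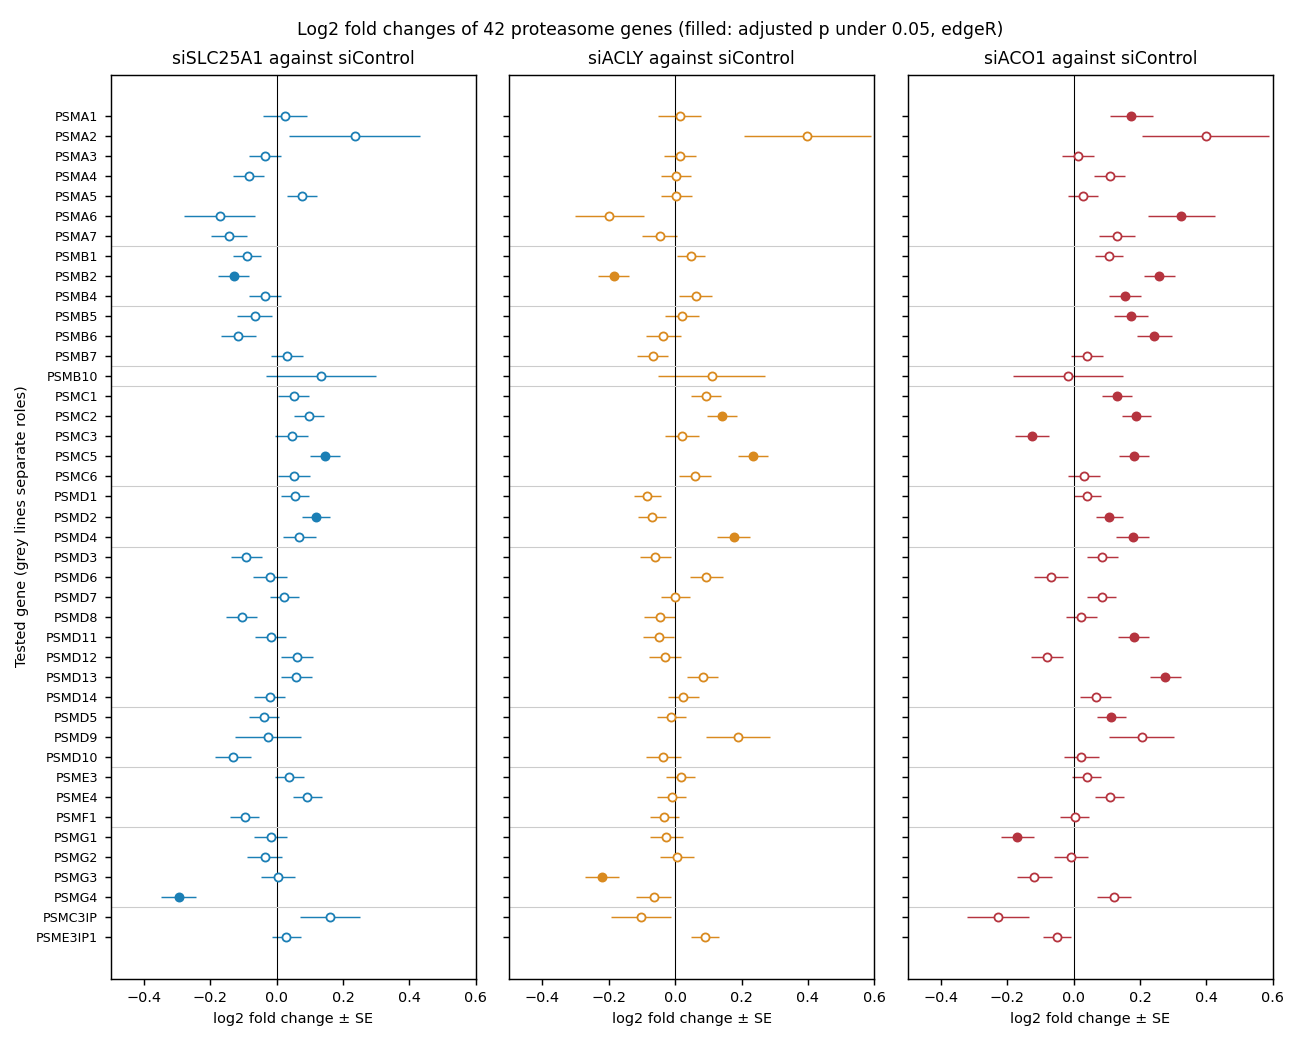
Log2 fold change ± SE of the 42 tested members in each knockdown against siControl, by role, with filled points for an adjusted p under 0.05. In siACO1 14 points are filled to the right of 0 and 2 to the left, while siSLC25A1 and siACLY have 4 and 5 filled points on both sides.

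Of the 4 chaperones of core assembly, 1 was called lower in siACO1 and 0 higher, or 25% called against 37.1% of all genes. Without siACO1 replicate 3, 2 were called lower and 0 higher. PSMG1, which with PSMG2 starts alpha ring assembly (chromosome 21, 39174769 to 39183851, minus strand), was at 130.5, 128 and 126 CPM in siControl and at 109, 109 and 124 CPM in siACO1 (log2 fold change -0.17, SE 0.05, adjusted p 0.00702). All siACO1 libraries lay below siControl, replicate 3 closest. The call was lost without siACO1 replicate 1 (adjusted p 0.0517) or 2 (0.0506), and without replicate 3 the log2 fold change was -0.24. PSMG2 was at -0.01 (SE 0.05), PSMG3 at -0.12 (adjusted p 0.0720, and called without replicate 3 at -0.16) and PSMG4 at 0.12 (adjusted p 0.0694). Of the chaperones of the cap base, PSMD5 was called at 0.11 but lost the call without siACO1 replicate 3 (adjusted p 0.0941) and in 10 of the 12 fits in all (up to 0.162), while PSMD9 was at 0.20 (SE 0.10) and PSMD10 at 0.02 (SE 0.05).

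The 3 tested activators and inhibitors were not called in any knockdown against siControl. PSME3 was at log2 fold changes of 0.04, 0.02 and 0.04 (SE 0.04 each) in siSLC25A1, siACLY and siACO1. PSME4, the large nuclear activator, was at 0.09, -0.01 and 0.11, and was called higher in siACO1 at 0.14 (adjusted p 0.00795) without siACO1 replicate 3. PSMF1, a proteasome-binding inhibitor, was at -0.10, -0.03 and 0.00 (SE 0.04 each). The symbol rule also took in PSMC3IP, a factor of meiotic recombination, and PSME3IP1, which binds PSME3, neither of them a subunit, and neither was called against siControl.

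**Figure D5:**
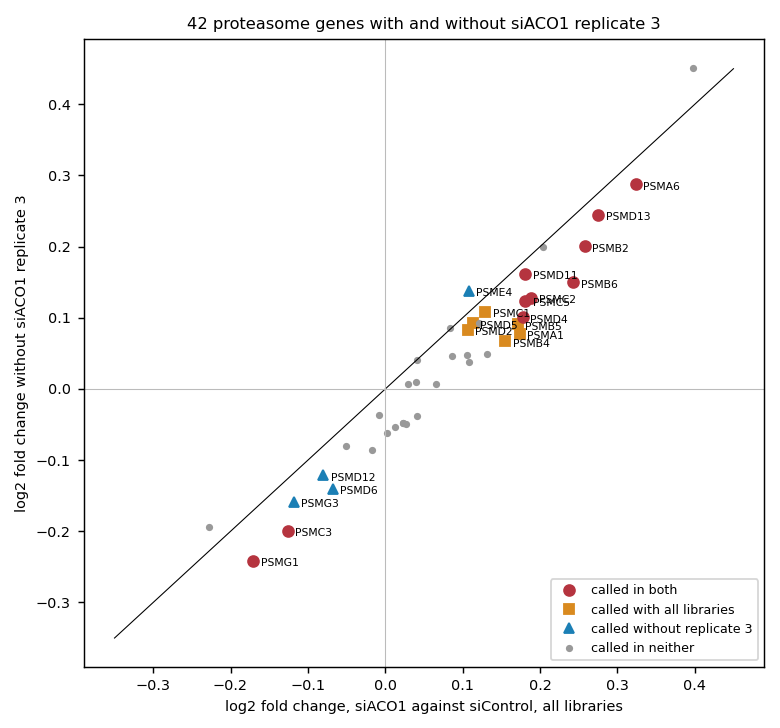
Log2 fold change in siACO1 against siControl for the 42 tested members, with all libraries (horizontal) and without siACO1 replicate 3 (vertical), and a line of equal values. Most points lie below the line, 10 genes were called in both fits, 6 with all libraries alone and 4 without replicate 3 alone.

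Comparisons between knockdowns use the same libraries as those above. Between siSLC25A1 and siACLY, 6 of 42 members were called, 14.3% against 33.8% of all genes. PSMG3 and PSMG4, partners in 1 chaperone, differed in opposite directions, with log2 fold changes of siSLC25A1 over siACLY of 0.22 (SE 0.05, adjusted p 0.00120) and -0.23 (SE 0.05, adjusted p 0.00119). PSMD2 and PSMD1, the scaffolds of the cap base, were higher in siSLC25A1 by 0.19 and 0.14, PSMC3IP was higher by 0.26, and PSMB1 was lower by a log2 difference of -0.14. By library totals 13 members were called, 2 higher and 11 lower (31% against 33.7% of all genes). Without siACO1 replicate 3 the count was 11, 6 higher and 5 lower (26.2% against 38.1%).

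Between siSLC25A1 and siACO1, 19 of 42 members were called, 45.2% against 42.1% of all genes, and 15 were lower in siSLC25A1, 35.7% against 20.3%. The widest differences were those of PSMA6 (log2 difference -0.50), PSMG4 (-0.42), PSMB2 (-0.39) and PSMB6 (-0.36), and in the other direction PSMC3IP (0.39), which is not a subunit. Without siACO1 replicate 3, 21 were called (50% against 40.3% of all genes) and 13 were lower (31% against 18.9%). By library totals 24 were called (57.1% against 42.2%) and 22 were lower (52.4% against 24.4%). Between siACLY and siACO1, 18 of 42 were called, 42.9% against 42.1% of all genes, and 14 were lower in siACLY, 33.3% against 20.7%. PSMA6 (-0.52), PSMB2 (-0.44) and PSMB6 (-0.28) again differed most. Without siACO1 replicate 3, 17 were called (40.5% against 41.4%) and 12 were lower (28.6% against 20.5%).

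The factors that act on the proteasome were taken from 4 further lists. NFE2L1 was at 251, 245 and 259.5 CPM in siControl, at 252, 282 and 278 in siSLC25A1, at 242, 247 and 267 in siACLY and at 213, 209 and 187 in siACO1. Only siACO1 lay apart from siControl, below it, and NFE2L1 fell there by 0.31 on the log2 scale (SE 0.05, adjusted p 1.90e-05), under all 19 alternatives. Of the 7 tested genes of the list of regulators of proteasome transcription, 0 rose and 3 fell in siACO1, 1 rose and 3 fell in siACLY, and 0 rose and 1 fell in siSLC25A1. That is 42.9% called in siACO1, 57.1% in siACLY and 14.3% in siSLC25A1, against 37.1%, 36.7% and 19.6% of all genes. The largest changes were those of NFE2L2, the antioxidant response regulator, in siACO1 (log2 fold change -0.64, adjusted p 2.35e-11) and of MAFK, a small MAF partner of both, in siACLY (-0.67, 9.12e-09) and siSLC25A1 (-0.41, 5.30e-05). NFE2L2 shares at least 20% of its bases or sequence with other genes and is uncertain.

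Of 11 other subunits and bound factors, 1 rose in siSLC25A1, 4 fell in siACLY and 3 rose in siACO1, or 9.09%, 36.4% and 27.3% against 19.6%, 36.7% and 37.1% of all genes. The ubiquitin ligase UBE3C, which binds the cap, fell in siACLY (log2 fold change -0.40, SE 0.04, adjusted p 1.20e-09), and ECPAS, an adaptor of the proteasome, rose in siSLC25A1 by 0.14 (adjusted p 0.0206). PAAF1, a cap assembly factor, was called in siACO1 at 0.17 (adjusted p 0.0465) and not without siACO1 replicate 3 (0.399). Of 14 ubiquitin and delivery genes, 0 rose and 2 fell in siSLC25A1, 1 rose and 3 fell in siACLY, and 4 rose and 3 fell in siACO1, or 14.3%, 28.6% and 50% called against the same shares of all genes. RPS27A, which encodes ubiquitin fused to a ribosomal protein, fell in siACO1 (log2 fold change -0.41, SE 0.05, adjusted p 7.27e-07).

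Of 16 genes of interferon control and antigen processing, 11 were tested. In siSLC25A1 1 rose and 1 fell, in siACLY 6 rose and 3 fell, and in siACO1 4 rose and 0 fell. The shares called were 18.2%, 81.8% and 36.4%, against 19.6%, 36.7% and 37.1% of all genes. STAT2, which carries interferon signals to the nucleus, was at means of 34.5 CPM in siControl and 50.1 CPM in siACO1, where it rose (0.54 on the log2 scale, SE 0.06, adjusted p 5.68e-08). IRF1 fell in siSLC25A1 from 4.80 to 2.51 CPM (-0.93, SE 0.16, adjusted p 8.52e-05) and is uncertain for overlap with other genes. TAPBP, a chaperone of antigen loading, showed the largest change in siACLY, from 1.36 to 0.424 CPM (-1.69, SE 0.32, adjusted p 0.000108). It rested on 7 to 48 counts per library, and 17 of the 21 protein-coding genes within 250 kb of it were near 0, as around PSMB8, so its level is uncertain. TAP1, TAP2, HLA-C, HLA-E and IRF9, the untested genes of the list, had at most 7 counts in all. TAP1 and TAP2 lie in the near-empty run around PSMB8, and IRF9 in that around PSME1 and PSME2. The rows of TAP1, TAP2 and IRF9 are thus given as listed and not as absent. PSMB10, the counted immunoproteasome gene, was not called in any of these groups.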

How the data were processed

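Poly(A)-selected RNA of 12 libraries was sequenced after fragmentation and random-hexamer priming, per the labels' protocols. The authors deposited 1 table of raw read counts per gene, per the file headers. The submitters' processing notes name CASAVA, FastQC, Trim Galore, STAR 2.7.0e and DESeq2 and the builds GRCh38 and GRCm39. The counting tool, annotation and use of strand are not given in the sources used here. Symbols matched 62700 of 70116 identifiers (89.4%), and unmatched rows (0.119% to 0.148% of a library's counts) stayed in. Coordinates and overlaps are from GENCODE 29 on GRCh38, and promoter windows are from RefSeq (GRCh38.p14).

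Genes were kept by edgeR's filterByExpr (16197), given TMM factors and fitted with the robust quasi-likelihood method of edgeR 4.0.16, run in R 4.3.3, over 4 groups and 12 libraries with no block. The 6 contrasts were tested two-sided and adjusted by Benjamini-Hochberg over all genes tested. Calls needed an adjusted p under 0.05, and the SE of a log2 fold change is its size over the root of F. Counts are relative to a library, so less RNA per cell and fewer cells cannot be told apart. Genes are named uncertain if 20% or more of their exon bases are also annotated to another gene, or if 20% or more of their 31-base stretches recur elsewhere. The fit was tested on simulated data.

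The members and the lists were chosen with earlier results of these data known. All members could be named. Values per library are given for the catalytic subunits and, in each knockdown, for up to 3 called rises and 3 called falls, and of each further list the called gene with the largest change is named. A single such gene is not reported here. The 19 alternatives were median-of-ratios scaling, library totals, no filter, at least 10 counts in every library, DESeq2 1.42.0, the replicate number as a block, only the 2 groups compared, and each of the 12 libraries left out.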

Additional observations from a re-analysis of the deposited data

How the results depend on the processing

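In the comparison of siSLC25A1 with siControl, the 4 called members became 9 with only the 2 groups compared, where 25.8% of all genes were called. They were between 1 and 11 when 1 library was left out, and the share of all genes then ran from 13.9% to 24.9%. The count was 1 without siControl replicate 1 or 3, 2 without siControl replicate 2, siSLC25A1 replicate 3, any siACLY replicate or siACO1 replicate 1, and 11 without siACO1 replicate 3. In siACLY against siControl, 5 became 9 by library totals and 9 with only the 2 groups compared. Between siSLC25A1 and siACLY, 6 became 13 by library totals (33.7% of all genes called) and 11 with only the 2 groups compared (38.9%). With 1 library left out the count was 4 to 11, and 28.1% to 38.1% of all genes were called. The counts of the other comparisons stayed within 1.5 times of the main count: 16 in siACO1 against siControl, from 11 to 24, 19 between siSLC25A1 and siACO1, and 18 between siACLY and siACO1. In siACO1 against siControl the share of all genes called ran from 17.5% without the filter to 43.2% with at least 10 counts in every library. Of 71 calls of a member or of NFE2L1 in a comparison, 39 held under every alternative, and of 187 without a call 131 stayed so. No direction of a called value reversed. Library totals moved the share of higher calls in siACLY from 3 of 5 to 7 of 9, between siSLC25A1 and siACLY from 4 of 6 to 2 of 13 and between siSLC25A1 and siACO1 from 4 of 19 to 2 of 24, and median-of-ratios scaling gave 2 of 3 in siSLC25A1. The cause of these shifts was not tested.

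Whether the replicate numbers pair the libraries could not be told from the deviations. Of 18 same-numbered pairs, 0 had deviations correlated over 0.1 (from -0.04 to 0.09), but the other pairs did not either (from -0.0784 to 0.0996). A library of their own number was the best correlated for 6 of 12 libraries. With the replicate block, the members called were 5, 5 and 19 in siSLC25A1, siACLY and siACO1 against siControl, 6 between siSLC25A1 and siACLY, 19 between siSLC25A1 and siACO1 and 18 between siACLY and siACO1. In the same order, 20.2%, 37.3%, 37.6%, 34.5%, 42.6% and 42.4% of all genes were called.

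Depth limits the low members most: PSMB10, PSMA2 and PSMD9 had SEs of 0.10 to 0.20 on the log2 scale. Changes of that size could not be detected, nor could some larger ones, since PSMA2 at 0.40 in siACO1 was not called. For PSMB10 the 95% intervals given above show this limit.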

Other observations

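The same symbol pattern matched 51 further rows that are not protein-coding, antisense transcripts and pseudogenes among them, of which 22 had no counts and 4 were tested. PSMA3-AS1, the antisense partner of the alpha subunit gene PSMA3, was at 19.4 ± 1.25 CPM in siControl, 19.3 ± 0.752 in siSLC25A1, 21.3 ± 0.75 in siACLY and 24.6 ± 1.93 in siACO1 (SD, n = 3 each). It was higher in siACO1 (log2 fold change 0.34, edgeR adjusted p 0.000427), while PSMA3 itself was at a log2 fold change of 0.01. PSMG3-AS1, at 21.7 ± 0.853 CPM in siControl, was at log2 fold changes of 0.14, 0.22 and 0.10 and was not called.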
